A study of Rattus norvegicus with 12 samples.

Results

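The genes of the transforming growth factor beta (TGF-beta) pathway described here were the ligands *Tgfb1*, *Tgfb2* and *Tgfb3*, the receptors *Tgfbr1*, *Tgfbr2* and *Tgfbr3*, and the SMAD genes *Smad2*, *Smad3*, *Smad4* and *Smad7*. They were picked by gene symbol from a table of raw read counts, and all 10 were found among its 17337 genes. When this list was drawn up, *Tgfbr2* was already known to be lower in non-addicted than in MA12 rats. The values of that comparison are therefore given below as a description, and meeting a threshold there is not read as a test. The other comparisons each share a group of rats with it. Values of *Tgfbr2* there, and counts of members that include it, are thus not free of this choice.

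The striatum, the input station of the basal ganglia, was taken from 12 wild-type adult male Sprague-Dawley rats, all of which had self-administered methamphetamine (MA), a psychostimulant that releases dopamine, for 16 days. Of these, 4 rats were collected 12 h after their last session (MA12), 4 rats 24 h after it (MA24), and 4 rats are labelled non-addicted after the same 16 days. How the non-addicted rats were told apart, and when after their last session they were collected, is not given in the sources used here, and rats that took no MA are not analysed here. Between MA12 and MA24 the hours of abstinence also moved the time of day of collection, and these cannot be told apart. All MA24 rats carry a number ending in N (9N, 14N, 15N and 16N), no non-addicted rat does (9, 11, 12 and 13), and the MA12 rats are split (21 and 31, then 4N and 7N). What the N stands for is not stated, so for non-addicted against MA24 the group and the N cannot be told apart.

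The 12 libraries held 17908962 to 23850284 counts. The tissue label was checked against marker genes. The 9 striatal projection neuron markers together reached 13501 to 17974 CPM (counts scaled to the size of the library) in the 12 libraries, and 4 cortical neuron markers together stayed between 2.69 and 10.2 CPM. No marker of the 8 cell type lists was at 0 in all libraries.

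TGF-beta ligands are secreted in a latent form and, once released, bind TGFBR2, the type II receptor kinase, which recruits and activates the type I receptor kinase TGFBR1. TGFBR3, also called betaglycan, is a co-receptor that presents ligand and binds TGF-beta 2 in particular. Activated TGFBR1 phosphorylates SMAD2 and SMAD3, which enter the nucleus with the common partner SMAD4, and the pathway induces SMAD7, which blocks the receptor as feedback. In the brain the pathway is known for its part in vessel wall stability, in the resting state of microglia and in the response of astrocytes to injury.

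The promoters of *Tgfbr1*, *Tgfbr2* and *Smad3* are shown because the results below turn on these members. Each sequence is the 250 bases before a gene start in RefSeq (assembly GRCr8, which is not the rn6 build that the counts were made on), and capitals mark the GC box GGGCGG on either strand.
Tgfbr1, chr5:66449148-66449397, plus strand: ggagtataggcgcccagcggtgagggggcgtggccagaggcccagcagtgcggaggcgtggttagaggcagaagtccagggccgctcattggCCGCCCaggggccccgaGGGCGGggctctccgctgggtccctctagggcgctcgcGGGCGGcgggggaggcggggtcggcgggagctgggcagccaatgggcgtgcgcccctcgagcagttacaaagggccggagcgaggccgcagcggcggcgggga
Tgfbr2, chr8:124761470-124761719, minus strand: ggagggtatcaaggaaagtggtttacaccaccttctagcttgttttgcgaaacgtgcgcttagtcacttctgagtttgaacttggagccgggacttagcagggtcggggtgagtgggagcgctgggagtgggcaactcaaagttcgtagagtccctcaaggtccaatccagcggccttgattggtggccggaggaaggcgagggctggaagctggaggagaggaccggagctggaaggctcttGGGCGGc
Smad3, chr8:73132325-73132574, minus strand: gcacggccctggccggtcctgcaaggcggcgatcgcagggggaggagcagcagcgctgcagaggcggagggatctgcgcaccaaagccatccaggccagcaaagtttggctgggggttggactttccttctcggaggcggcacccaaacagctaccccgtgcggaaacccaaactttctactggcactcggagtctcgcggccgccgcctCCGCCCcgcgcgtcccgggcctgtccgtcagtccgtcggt
The *Tgfbr1* window had a GC content of 75.6% and held the box 3 times, the *Smad3* window 68.4% and 1 box, and the *Tgfbr2* window 58% and 1 box, against a median GC content of 51.2% over all 33469 promoters. The *Tgfbr2* window lies wholly inside the annotated span of the gene, since another transcript starts further upstream, and 50 bases of the *Tgfbr1* window lie inside its gene. The windows of *Tgfb2*, *Tgfb3* and both starts of *Smad2*, counted below, also lie wholly inside the spans of their genes. All 10 members had a promoter entry, *Smad2* with a pair of starts. The GC box was present for *Tgfbr1*, *Tgfbr2*, *Tgfbr3*, *Smad2*, *Smad3* and *Smad7* and absent from the windows of *Tgfb1*, *Tgfb2*, *Tgfb3* and *Smad4*, while 30.5% of all promoters of this length held it. On either strand, the SMAD palindrome GTCTAGAC was in no member's window and in 0.173% of all, and the CAGA box CAGACA in no member's and in 17.2% of all. The TATA box TATAAA was found for *Smad4* only among the members, and in 12.9% of all promoters. These matches are letters in a window and do not show that a factor binds.

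Levels below are log2 CPM, in the order of the rat numbers given above, and they are compared between rats for the same gene, not between genes, because they are not scaled to transcript length. Among the ligands, *Tgfb1*, the form made mainly by microglia and vessels in the brain, was at 2.74, 3.50, 3.83 and 3.26 in the MA12 rats, 3.38, 3.56, 3.44 and 3.63 in the MA24 rats and 3.05, 2.89, 3.02 and 3.49 in the non-addicted rats. The MA12 rats covered the widest range, and the groups overlapped in every comparison. Within MA12, the rats numbered with N averaged 3.54 and those without N 3.12.

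*Tgfb2*, a form made in neurons and glia, was at 3.10, 3.22, 3.06 and 3.16 in MA12, 3.10, 2.90, 3.22 and 3.21 in MA24 and 3.22, 3.41, 3.44 and 3.01 in non-addicted rats. Its 12 values spanned only 0.55 on the log2 scale. *Tgfb3*, the least counted member with 40 to 123 counts a library, was at 2.06, 2.01, 1.82 and 2.15 in MA12, 2.43, 2.12, 2.55 and 1.14 in MA24 and 2.36, 1.89, 2.36 and 2.26 in non-addicted rats. The low value of MA24 rat 16N gave that group an SD of 0.64, against 0.14 in MA12 (n = 4 each), and all groups overlapped for both ligands.

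Among the receptors, *Tgfbr1* was at 5.08, 5.27, 5.37 and 4.82 in MA12, 4.85, 4.35, 4.69 and 4.44 in MA24 and 4.32, 4.76, 4.88 and 4.74 in non-addicted rats. MA12 was the highest group with a mean of 5.13 ± 0.24 (SD, n = 4), and its lowest rat, 7N, was just below MA24 rat 9N. MA24 (4.58 ± 0.23) and non-addicted rats (4.67 ± 0.24) lay close together.

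*Tgfbr2*, the ligand-binding kinase, had the widest range of all 10 members, 1.54 on the log2 scale, or 189 to 688 counts. It was at 4.45, 4.85, 4.68 and 4.47 in MA12, 4.43, 3.91, 4.42 and 4.14 in MA24 and 3.31, 3.59, 3.65 and 4.10 in non-addicted rats. The means ran from 4.61 ± 0.19 in MA12 through 4.22 ± 0.25 in MA24 to 3.66 ± 0.33 in non-addicted rats (SD, n = 4). MA12 stood above both other groups without overlap, though narrowly above the highest MA24 rat, and non-addicted rat 13 reached into the MA24 range.

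The co-receptor gene *Tgfbr3* was at 4.22, 4.37, 4.24 and 4.27 in MA12, 4.06, 3.58, 3.95 and 4.26 in MA24 and 3.87, 4.30, 4.14 and 4.50 in non-addicted rats. MA12 was tight (SD 0.07), the non-addicted rats lay on either side of it, and 3 of 4 MA24 rats lay below it. MA24 rat 14N was the lowest of its group for all 3 receptors.

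Of the SMADs that receive the signal, *Smad2* was at 4.95, 4.78, 4.95 and 4.85 in MA12, 4.58, 4.70, 4.78 and 4.54 in MA24 and 4.73, 4.66, 4.87 and 4.61 in non-addicted rats. *Smad3* was at 7.02, 6.93, 6.94 and 6.95 in MA12, 7.11, 7.12, 7.21 and 7.12 in MA24 and 7.42, 7.11, 7.39 and 7.38 in non-addicted rats. The *Smad3* order was the reverse of the *Tgfbr2* order, with means of 6.96 ± 0.04, 7.14 ± 0.05 and 7.32 ± 0.15 (SD, n = 4), and MA12 lay below both other groups without overlap.

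*Smad4*, the common partner, varied least, from 5.95 to 6.27 over the 12 rats, with group means of 6.10 ± 0.04 in MA12, 6.03 ± 0.10 in MA24 and 6.19 ± 0.09 in non-addicted rats. The inhibitor gene *Smad7* was at 6.08, 6.09, 6.46 and 6.18 in MA12, 6.12, 5.88, 6.02 and 6.16 in MA24 and 5.86, 5.90, 5.93 and 6.20 in non-addicted rats. MA12 rat 4N was the highest of the 12 for *Smad7* and also for *Tgfb1* and *Tgfbr1*.

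**Figure D1:**
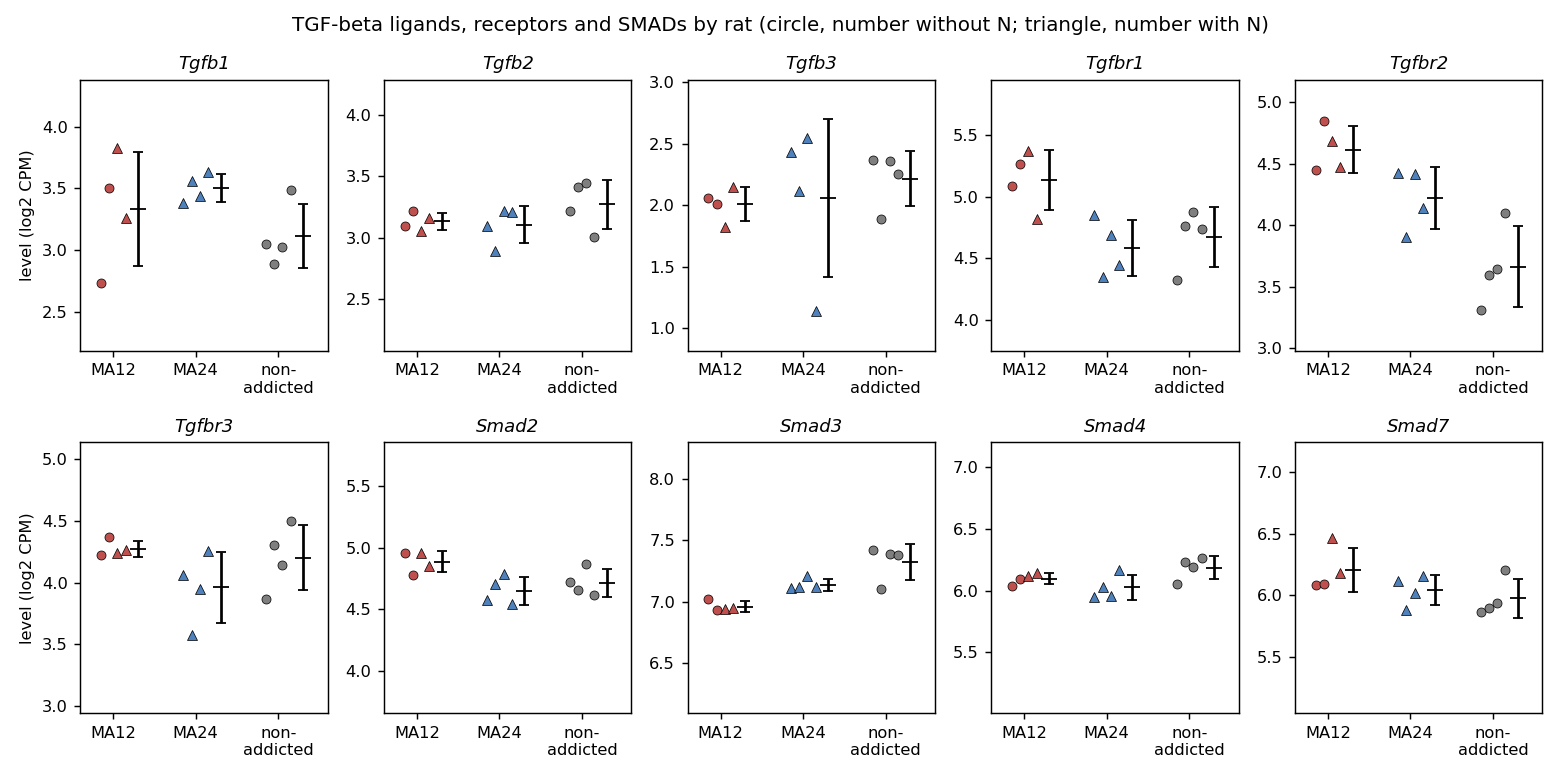
Level (log2 CPM) of each of the 10 genes in each rat, by group, with circles for rat numbers without N, triangles for numbers with N, and bars for the group mean ± SD (n = 4). The mean of *Tgfbr2* is highest in MA12 (4.61), then MA24 (4.22) and non-addicted rats (3.66), and *Smad3* has the reverse order (6.96, 7.14 and 7.32).

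The comparison of MA24 with MA12 asks what differed between the longer and the shorter abstinence. None of the 10 members was a differentially expressed gene (DEG), defined as an adjusted p (edgeR, Benjamini-Hochberg over all genes tested) under 0.05 together with a fold change of at least 1.5. Of the 8 members that passed the filters, 4 had an unadjusted p under 0.05, and DESeq2 called none of these 8. Over all 10754 genes tested the DEG share was 2.45%, and 23.6% had an unadjusted p under 0.05. *Tgfbr1* came nearest. It was 1.47-fold lower in MA24 (log2 fold change -0.55, SE 0.14, 95% interval -0.83 to -0.27) with an adjusted p of 0.0248, so it passed the test but not the fold limit. An adjusted p under 0.05 in this downward direction was given to 3.32% of all genes. With only the rats numbered with N its log2 fold change was -0.51 and its adjusted p 0.124, and leaving out MA12 rat 31 or 4N, or MA24 rat 14N or 16N, also took its adjusted p above 0.05 (0.0602, 0.0608, 0.0626 and 0.0682). Leaving out MA12 rat 7N or MA24 rat 9N instead made it a DEG, with log2 fold changes of -0.64 and -0.65.

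*Tgfbr2* differed from MA12 to MA24 by a log2 fold change of -0.38 (SE 0.14, interval -0.67 to -0.09) and *Tgfbr3* by -0.29 (SE 0.14), with adjusted p-values of 0.105 and 0.212. For *Smad2* the value was -0.23 (SE 0.11, adjusted p = 0.202) and for *Smad7* -0.17 (SE 0.11, adjusted p = 0.359). All 3 receptors were thus below 0, and only *Tgfbr1* passed the test.

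The ligands lay nearer to 0 in MA24 against MA12. *Tgfb1* was at 0.12 (interval -0.28 to 0.53), *Tgfb2* at -0.02 (-0.36 to 0.32) and *Tgfb3* at 0.14 (-0.43 to 0.72), with adjusted p-values of 0.737 to 0.950. These intervals leave room for differences of either sign, and the sign of each ligand turned under at least 1 alternative. *Smad3* and *Smad4* were removed by the filter on low variance and were fitted without it, giving 0.18 for *Smad3* (SE 0.06, adjusted p = 0.119) and -0.07 for *Smad4* (SE 0.07, adjusted p = 0.624). The *Smad3* groups did not overlap, nor did those of *Tgfbr2*, and this held for 14.4% of all genes without the variance filter. The list was made knowing that *Tgfbr2* was higher in these MA12 rats than in non-addicted rats. No count of members is therefore set against this share. The median log2 fold change was -0.12 over the members and -0.02 over all genes tested, and 7 of 10 members were below 0.

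The comparison of non-addicted with MA24 rats gave no DEG among the members and no adjusted p under 0.05, while 2 of the 9 members that passed the filters had an unadjusted p under 0.05, and DESeq2 called none of these 9. Over all 10744 genes tested the DEG share was 0.456%, and 1879 genes had an unadjusted p under 0.05. *Tgfbr2* was 1.47-fold lower in non-addicted rats (log2 fold change -0.56, SE 0.17, interval -0.91 to -0.21), with an adjusted p of 0.123. Without non-addicted rat 13, the highest of its group, the value was -0.72 and the adjusted p 0.0193, which makes *Tgfbr2* a DEG. In that fit 187 of 10751 genes were DEGs. *Tgfbr2* was not a DEG in the other 14 of 15 alternatives, with adjusted p-values up to 0.934. *Tgfb1* was at -0.38 (SE 0.17, adjusted p = 0.248).

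The other receptors went the opposite way in non-addicted against MA24 rats, with 0.09 for *Tgfbr1* (interval -0.20 to 0.38, adjusted p = 0.767) and 0.23 for *Tgfbr3* (-0.10 to 0.57, adjusted p = 0.443). *Smad3* was at 0.18 (SE 0.10, adjusted p = 0.327), *Smad4* at 0.16 (SE 0.10, adjusted p = 0.400) and *Smad7* at -0.07 (SE 0.11, adjusted p = 0.751). *Tgfb2*, *Tgfb3* and *Smad2*, the last fitted without the variance filter, lay between 0.07 and 0.17 with adjusted p-values of 0.608 to 0.907. No member had groups without overlap, against 9.39% of all genes without the variance filter.

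Values for non-addicted against MA12 rats are a description, because this comparison was known when the list was made. *Tgfbr2* had a log2 fold change of -0.94 (SE 0.16), or 1.92-fold lower, the value that the list was made with. Since the list was made with this value, its meeting the DEG rule is no test, and no count of members is read. The rule was met by 0.251% of the 10758 genes tested. Without the variance filter, or with at least 10 counts required in every library, *Tgfbr2* missed the rule. It also missed the rule with the kind of rat number in the model and without non-addicted rat 12. *Tgfbr1* was at -0.47 (SE 0.13), *Tgfb1* at -0.26 (SE 0.21) and *Smad7* at -0.24 (SE 0.11). *Smad3* was at 0.36 (SE 0.10), with all non-addicted rats above all MA12 rats. Groups did not overlap for 6.65% of all genes without the variance filter, and no count of members is set against this share. The remaining members lay between -0.17 and 0.22. The 3 comparisons share groups, so their values are not independent of each other.

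**Figure D2:**
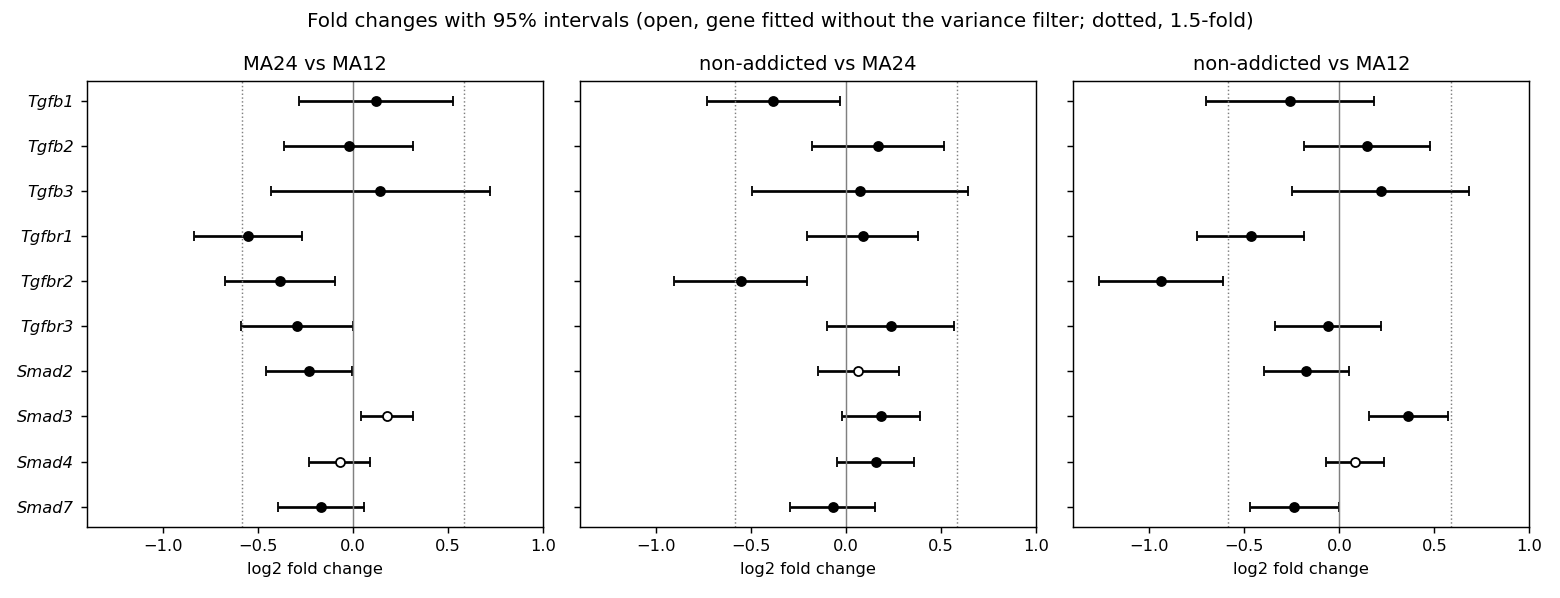
Log2 fold change of each of the 10 genes with its 95% interval in the 3 comparisons, with open points for genes fitted without the variance filter and dotted lines at a 1.5-fold change. *Tgfbr1* lies at -0.55 in MA24 against MA12, and *Tgfbr2* at -0.56 against MA24 and -0.94 against MA12 in non-addicted rats, while most other intervals reach across 0. The intervals for non-addicted against MA12 rats are a description, since the list was made with that comparison known.

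Differences between 2 genes of the same library do not depend on the scaling of that library. The pairs below were chosen after the levels were seen and carry no test. *Tgfbr2* minus *Tgfbr1*, the type II against the type I receptor, was -0.64, -0.41, -0.69 and -0.35 in the MA12 rats, -0.42, -0.44, -0.27 and -0.30 in the MA24 rats and -1.01, -1.17, -1.23 and -0.64 in the non-addicted rats. The non-addicted rats lay below all MA24 rats, and non-addicted rat 13 lay inside the MA12 range. *Tgfbr2* minus *Tgfbr3* averaged 0.34 in MA12, 0.26 in MA24 and -0.54 in non-addicted rats, whose highest value of -0.40 was below the lowest of the other groups, -0.12.

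*Smad3* minus *Smad2* was 2.07, 2.16, 1.99 and 2.09 in MA12, 2.53, 2.41, 2.43 and 2.58 in MA24 and from 2.45 to 2.76 in non-addicted rats. Here MA12 stood apart from both other groups, and MA24 and non-addicted rats overlapped.

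**Figure D3:**
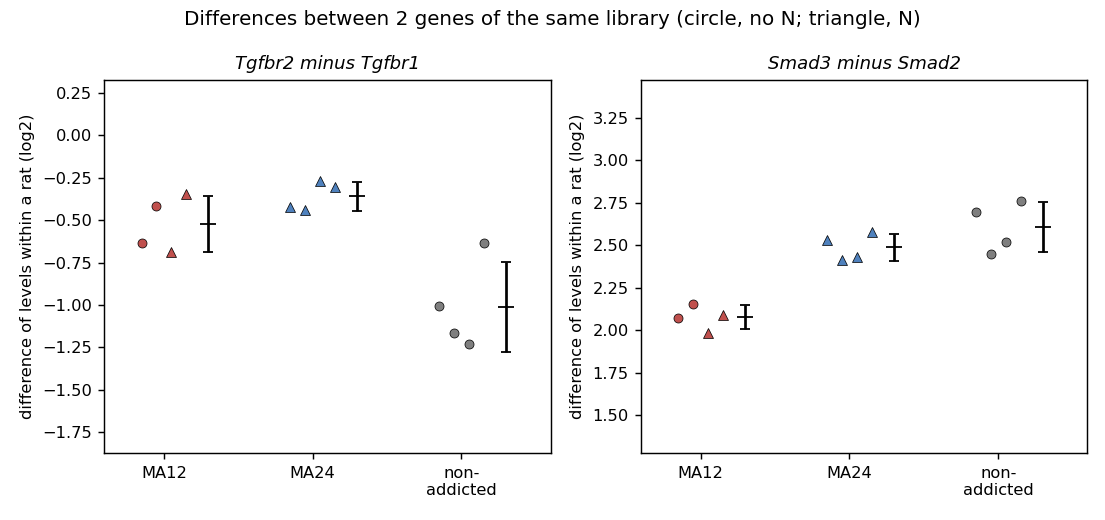
Difference of levels (log2) between 2 genes of the same library, by group, with circles for rat numbers without N and triangles for numbers with N. *Tgfbr2* minus *Tgfbr1* is lowest in the non-addicted rats (-1.23 to -0.64), and *Smad3* minus *Smad2* is lowest in the MA12 rats (1.99 to 2.16).

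The 5 genes whose level followed that of *Tgfbr2* most closely, by Pearson's r over the 12 rats among 10764 genes with a mean count of at least 50, were *Cd34* (0.926), *Kdr* (0.924), *Itgb5* (0.906), *Pdgfrb* (0.904) and *Arhgap29* (0.895). *Kdr* encodes a receptor for vascular endothelial growth factor and *Cd34* a surface glycoprotein, both found in endothelium, *Pdgfrb* is the platelet-derived growth factor receptor of mural cells, and *Itgb5* encodes an integrin subunit. With the group means taken out, r was 0.720, 0.779, 0.781, 0.635 and 0.843. These are descriptions across libraries that share groups, depth and tissue composition, and they were picked as the highest of all genes compared. Among the other members, *Smad7* had an r of 0.720 with *Tgfbr2*, *Tgfbr1* 0.702, *Tgfb1* 0.472 and *Tgfbr3* 0.354, and *Smad3* had -0.753.

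Marker levels were read beside *Tgfbr2*. The endothelial markers, 11 of 12 found in the table, summed to 542 to 678 CPM in MA12, 618 to 694 CPM in MA24 and 411 to 575 CPM in non-addicted rats, and the 11 mural and fibroblast markers to 254 to 407, 253 to 299 and 201 to 253 CPM. In non-addicted against MA24 rats, 11 of 11 endothelial markers were below 0 with a median log2 fold change of -0.37, and *Cldn5* and *Kdr* were DEGs. There the mural and fibroblast markers were below 0 for 10 of 11 (median -0.38), and the microglial markers for 11 of 11 (median -0.27), with no DEG in either list. Oligodendrocyte markers were also below 0 for 6 of 6 (median -0.36) and projection neuron markers for 8 of 9 (median -0.11), and astrocyte markers were split (median -0.04). Ependymal and choroid plexus markers were above 0 for 7 of 8 (median 0.98), with *Foxj1* a DEG. Among them *Ttr* was at 5.59 (SE 1.45, adjusted p = 0.0807). Medians below 0 were thus not limited to the vascular lists. In MA24 against MA12 the endothelial markers were split, with 7 of 11 above 0 (median 0.13) and no DEG. *Emcn* (-0.29), *Kdr* (-0.23), *Tek* (-0.10) and *Flt1* (-0.01) were below 0, as was *Tgfbr2*. The mural and fibroblast median was -0.20, and *Abcc9* and *Rgs5* were DEGs that fell, as was the astrocyte marker *Slc1a2* (-0.70). Microglial markers were above 0 there for 8 of 10 (median 0.26) and oligodendrocyte markers for 5 of 6 (median 0.19). Astrocyte and projection neuron medians were at -0.01, and ependymal and choroid plexus markers were below 0 for 6 of 7 (median -0.36). In non-addicted against MA12 rats, given as a description, endothelial markers were below 0 for 11 of 11 (median -0.31). Mural and fibroblast markers were below 0 for 11 of 11 (median -0.56) and microglial markers for 8 of 11 (median -0.05). The medians were -0.17 for oligodendrocyte (6 of 6 below 0), -0.06 for projection neuron, -0.01 for astrocyte and 0.63 for ependymal and choroid plexus markers. *Kdr*, *Abcc9* and *Acta2* of the vascular lists and the projection neuron marker *Pdyn* met the DEG rule there, all lower in non-addicted rats. The part of the marker lists in the differences of *Tgfbr2* was not tested. In bulk tissue, fewer cells of a type and less RNA per cell cannot be told apart.

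**Figure D4:**
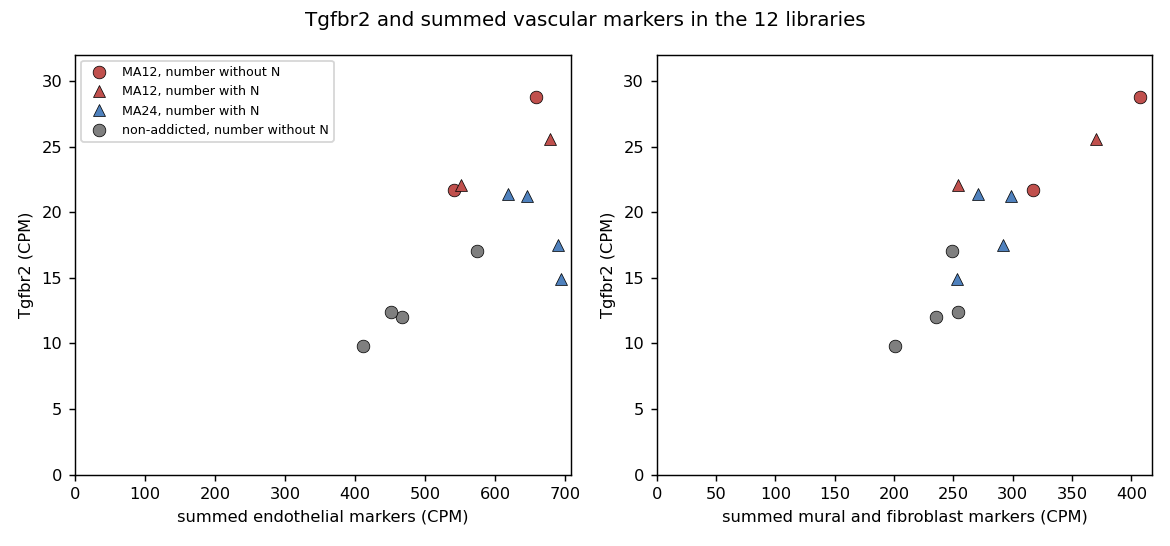
*Tgfbr2* (CPM, vertical axis) against the summed endothelial markers (CPM, left) and the summed mural and fibroblast markers (CPM, right) in each of the 12 libraries, colored by group, with circles for numbers without N and triangles for numbers with N. The non-addicted rats lie toward the low end of both marker sums (411 to 575 and 201 to 253 CPM) but overlap other groups. Their rat 13 lies above MA12 rats 21 and 7N (542 and 551 CPM) on the endothelial sum, and their rat 12 just above MA24 rat 14N on the other. The MA24 rats lie at endothelial sums of 618 to 694 CPM. Their highest *Tgfbr2*, 21.4 CPM in rat 9N, is just below the lowest of the MA12 rats, 21.7 CPM in rat 21.

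Around these 10 genes, 6 lists of the wider TGF-beta superfamily were followed, holding 99 symbols of which 91 were in the table. In MA24 against MA12, 4 of the 75 genes tested were DEGs, or 5.33% against 2.45% of all genes. The share was 0.735% of all genes for higher and 1.72% for lower DEGs. Of 10 ligands tested, *Inha* rose. Of 12 receptors tested, *Acvr1c* and *Bmpr2* fell, and the median log2 fold change of the receptors was -0.34 with 9 of 12 below 0. Of 18 genes of ligand latency, activation and extracellular inhibition, *Itgb8* fell. Values below 0 were not limited to the receptors. They were found for 12 of these 18 genes (median -0.17), 11 of 14 intracellular regulators (-0.20) and 11 of 18 target genes (-0.03). The ligands were above 0 for 7 of 10 and the other SMADs for 2 of 3. Over all lists 47 of 75 were below 0, with a median of -0.08 against -0.02 over all genes tested. None of 3 other SMADs, 14 intracellular regulators or 18 target genes was a DEG, and among the regulators the deubiquitinase genes *Usp9x* (-0.42) and *Usp15* (-0.43) had adjusted p-values of 0.0195 and 0.0373 but missed the fold limit.

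*Inha*, the inhibin alpha subunit, which opposes activin signaling, was at 3.18, 3.33, 2.94 and 3.33 in MA12 and at 3.82, 4.27, 3.72 and 4.33 in MA24. It rose 1.82-fold (log2 fold change 0.86, SE 0.17, adjusted p = 0.00904), and all MA24 rats were above all MA12 rats. The non-addicted rats lay between 3.52 and 3.95. With the N of the rat number in the model *Inha* was not a DEG (adjusted p = 0.0648).

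*Bmpr2*, the type II receptor for bone morphogenetic proteins, was at 5.78, 5.84, 5.51 and 5.54 in MA12 and 5.17, 4.67, 4.96 and 5.04 in MA24, a fall of 1.62-fold (-0.70, SE 0.12, adjusted p = 0.00558) without overlap. *Itgb8*, an integrin subunit that helps to release latent TGF-beta, was at 5.30, 5.22, 5.06 and 4.68 in MA12 and 4.64, 3.61, 4.12 and 4.27 in MA24, a fall of 1.84-fold (-0.88, SE 0.17, adjusted p = 0.00904), again without overlap. With only the rats numbered with N, neither was a DEG (adjusted p = 0.0635 and 0.0712), nor with the N of the rat number in the model (adjusted p = 0.126 and 0.200).

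*Acvr1c*, the type I receptor ALK7 for nodal and some activins, was at 4.93, 4.40, 4.88 and 4.35 in MA12 and 4.35, 2.23, 3.80 and 3.69 in MA24. It fell by 1.95-fold (-0.97, SE 0.27, adjusted p = 0.0422) with groups that overlapped, and without MA24 rat 14N, the lowest, the value was -0.69 (adjusted p = 0.0359). The call was lost in 10 of 16 alternatives, among them DESeq2 and the fit without the variance filter (adjusted p up to 0.174).

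In non-addicted against MA24 rats none of 77 genes tested was a DEG by edgeR or DESeq2. Of these, 22 had an unadjusted p under 0.05 in edgeR, against 1879 of all 10744 genes tested. In non-addicted against MA12 rats, given as a description, 1 of 74 met the rule. This was *Tagln*, a smooth muscle actin-binding protein gene induced by TGF-beta, at 4.38, 4.91, 4.58 and 4.40 in MA12, 4.13, 4.25, 4.22 and 4.14 in MA24 and 3.93, 3.91, 3.37 and 3.80 in non-addicted rats. Its group order was that of *Tgfbr2*, and here no groups overlapped. Of the 18 target genes tested in non-addicted against MA12 rats, 13 were below 0 and 5 above. Their median was -0.24, against -0.01 over all genes tested. *Tagln* missed the rule in 7 of 16 alternatives, among them the fits without the variance filter and with the N of the rat number. The tested comparisons gave it -0.40 in MA24 against MA12 (adjusted p = 0.0749) and -0.43 in non-addicted against MA24 rats (adjusted p = 0.145). *Tagln* is also made in mural cells, whose marker values are given above.

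**Figure D5:**
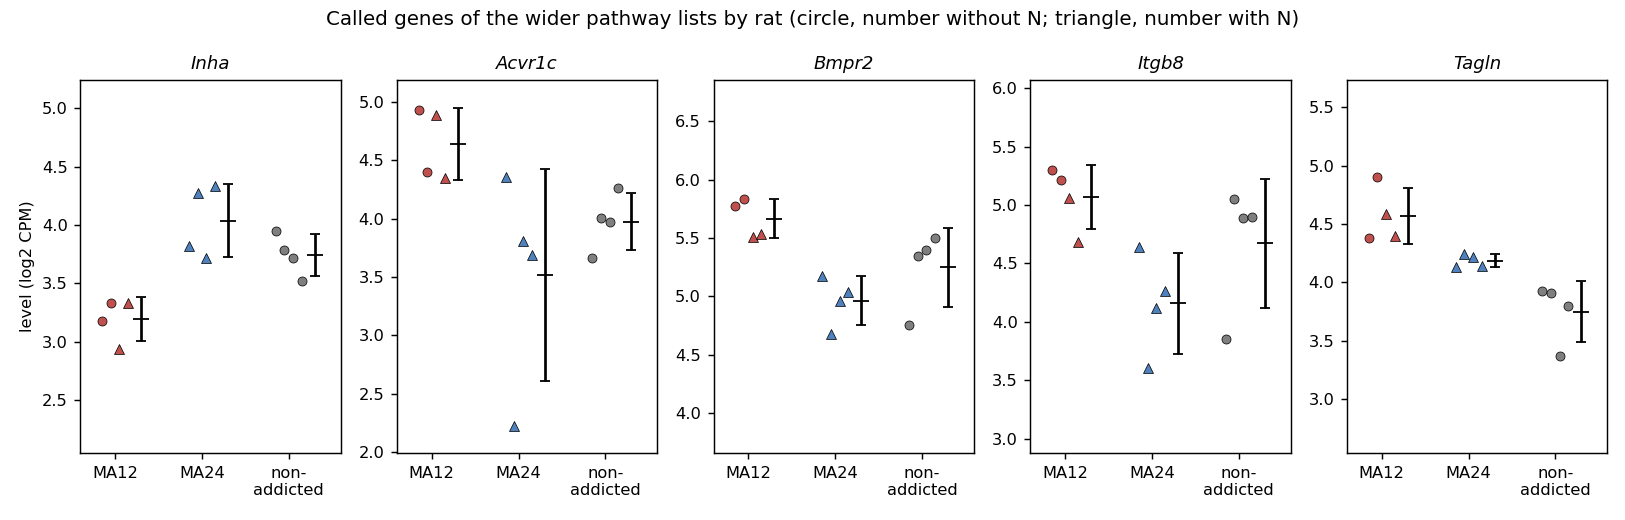
Level (log2 CPM) of the 5 DEGs of the wider lists in each rat, by group, with circles for rat numbers without N, triangles for numbers with N and bars for the mean ± SD (n = 4). *Inha* is higher in MA24 (3.72 to 4.33) than in MA12 (2.94 to 3.33), *Bmpr2* and *Itgb8* are lower in MA24, *Acvr1c* holds the low value of rat 14N (2.23), and *Tagln* is lowest in the non-addicted rats.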

How the data were processed

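Poly-A RNA of the striatum of 12 rats was sequenced in paired ends after TRIzol extraction and TruSeq library preparation. Per the labels, the submitters' processing notes name Cutadapt 1.18, STAR 2.7.0e, featureCounts, HTSeq 0.12.4 and the rn6 build, and the authors deposited raw counts per gene. Strand and multi-mapping settings are not given in the sources used here. The labels give 1 batch for all libraries and do not number rats across groups, so p-values measure the spread between rats of a group. Libraries of a group differed by at least 9.96 times sampling noise (chi-square per degree of freedom), so none was counted as a repeat.

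Counts were fitted with edgeR 4.0.16 (R 4.3.3, glmQLFit and glmQLFTest, TMM) for each pair of groups (4 rats each), after keeping genes with a mean count above 4 and removing the least variable 15% on the log2 CPM scale, a filter that is not independent of group differences. P-values were adjusted by Benjamini-Hochberg over all genes tested. A DEG has an adjusted p under 0.05 and a fold change of at least 1.5. Members removed by the variance filter were fitted without it. SE is the log2 fold change over the square root of F. Levels are in log2 CPM (TMM over 12 libraries, prior count 2). On simulated counts, edgeR recovered 143, 150 and 148 of 200 genes changed 2-fold (MA24 against MA12, non-addicted against MA24, non-addicted against MA12), with 5, 7 and 9 false calls. The filters were not applied again to the simulated counts, and changes near 1.5-fold were not simulated, so recovery there is not known.

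The members and lists were chosen with earlier results of these data known. The genes named were all 10 members, each DEG of the wider lists, and the 5 genes most correlated with *Tgfbr2*. Single genes of the marker lists, the 2 regulators that missed the fold limit and the gene pairs were named after their values were seen. Alternatives were DESeq2 1.42.0, RLE factors, other filters, all 3 groups in the fit, the rat number with or without N as a covariate or a selection, and each rat left out. The covariate is set by the MA12 rats alone, the only group with both kinds of number.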

Additional observations from a re-analysis of the deposited data

Results flagged for a closer look

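In 30 groups of 4 rats (10 members, 3 groups) the gap between an extreme rat and its nearest neighbor was divided by the range of the group, and chance alone would put about 1.5 groups above the critical value of Dixon's test. All 3 that passed were groups of *Smad3*. MA12 rat 21 lay above its group with a ratio of 0.851 (3090 counts), MA24 rat 15N lay above its group with 0.905 (2884 counts), and non-addicted rat 11 lay below its group with 0.860 (2790 counts). The first 2 groups have SDs of 0.04 and 0.05 on the log2 scale, so the gaps are small in size. Without MA12 rat 21 the log2 fold change of *Smad3* in MA24 against MA12 was 0.21 in place of 0.18. In non-addicted against MA24 rats it was 0.25 without non-addicted rat 11 and 0.21 without MA24 rat 15N, in place of 0.18. The cause of these gaps was not tested.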

How the results depend on the processing

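No paired analysis was possible because the rats of different groups carry different numbers. Members called in MA24 against MA12 numbered 0, and 0 to 1 with each rat left out (1, *Tgfbr1*, without MA12 rat 7N or MA24 rat 9N), and 1 by adjusted p alone, an alternative chosen after seeing the data. Over its alternatives the adjusted p of *Tgfbr1* ranged from 0.00756 to 0.156. In non-addicted against MA24 rats the count was 0, and 0 to 1 with each rat left out. In non-addicted against MA12 rats, given as a description, the count was 1, and 0 to 1 with each rat left out. It was 0 without the variance filter, with a minimum of 10 counts per library, and with the kind of rat number as covariate. Genes called in the wider lists numbered 4 in MA24 against MA12, 0 with that covariate, 2 among rats numbered with N and 3 to 6 with each rat left out. They numbered 0 in non-addicted against MA24 rats (0 to 2 with each rat left out), and 1 in non-addicted against MA12 rats, with 3 under DESeq2, 2 among rats without N, 0 with no variance filter, no filter, the 10-count minimum or the covariate, and 0 to 3 with each rat left out. *Tagln* was lost in the last comparison whenever the count was 0.

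Some log2 fold changes near 0 turned in sign. In MA24 against MA12, *Tgfb1* was at -0.0757 with the covariate, -0.0585 among rats with N and -0.0373 to 0.308 with each rat left out, below 0 without MA12 rat 21. *Tgfb2* was at 0.0116 among rats with N and -0.0588 to 0.0058 with each rat left out, above 0 without MA12 rat 31, and *Tgfb3* at -0.0163 to 0.369, below 0 without MA24 rat 15N. In non-addicted against MA24 rats, *Tgfb1* was at 0.0473 and *Smad7* at 0.191 with the covariate. These values carry over the difference by N within MA12, since group and N cannot be told apart here. With each rat left out, *Tgfb3* was at -0.151 to 0.234, below 0 without MA24 rat 16N, and *Acvr1c* at -0.00239 to 0.596, below 0 without MA24 rat 14N. In non-addicted against MA12 rats, *Tgfbr3* was at -0.15 to 0.0475, above 0 without non-addicted rat 9. The cause was not tested.

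The count over all genes also moved. For MA24 against MA12 it was 264, then 4 with the covariate, 116 among rats with N and 129 to 436 with each rat left out. For non-addicted against MA24 rats it was 49, then 126 under DESeq2, 10 without filters, 0 without the variance filter or with the 10-count minimum, 2 with all 3 groups in the fit, 0 with the covariate and 0 to 187 with each rat left out. For non-addicted against MA12 rats it was 27, then 75, 12, 5, 4, 16 and 0 in the same order of settings (the variance filter before the minimum), 63 among rats without N and 8 to 93 with each rat left out. With counts of 40 to 123, *Tgfb3* has the widest intervals and the least precision.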
